A study of Mus musculus with 11 samples.

Results

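The 10 genes described here belong to the Bcl2 family, whose proteins decide at the outer mitochondrial membrane whether a cell lives or dies. Anti-apoptotic members (Bcl2, Bcl2l1, Mcl1, Bcl2a1d) hold the effectors Bax and Bak1 in check, and BH3-only members (Bid, Bcl2l11, Bbc3, Pmaip1) relay stress signals by activating the effectors or by occupying the anti-apoptotic members. Once free, Bax and Bak1 permeabilise the membrane, cytochrome c leaves the mitochondrion and caspases are activated. Mature B cells and plasma cells depend on different anti-apoptotic members for survival, and loss of death signalling is a known partner of Myc in B cell lymphoma.

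The genes were found by their names on the array: 12 of 39429 probes carried one of the 10 names, with 2 probes each for Bcl2l1 and Mcl1 and 1 for each other gene. All 12 probes passed the filter on dim probes, so that the 10 genes stood among 20181 genes tested. Tumours of 3 types were compared, all taken from lymph nodes of Black 6 mice: plasma cell lymphoma (PCL, 4 tumours), mantle cell lymphoma (MCL, 3 tumours) and Burkitt lymphoma (BL, 4 tumours). Every tumour, of whichever type, shared the genotype c-myc-3'RR/p53+/-, that is a c-myc transgene driven by the immunoglobulin heavy chain 3' regulatory region, which is active in B-lineage cells, and 1 disrupted copy of p53. There was no normal B cell or non-transgenic sample among the groups, and no animal ages were used here. Each tumour was hybridised to 1 one-colour array, and no slide carried more than 1 type, so type and slide cannot be told apart.

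A level below is the log2 of the processed probe signal minus the 75th percentile of that array, so 0 is the array's own 75th percentile and 1 unit is a doubling. Levels compare tumours for the same probe and are not compared between genes. Differences are the first-named type minus the other, from a limma fit of all 11 arrays, and a gene is called where its Benjamini-Hochberg adjusted p over all genes is under 0.05. The 75th percentile of the processed signal was 1067 to 1632 intensity units. On each array 55.5% to 62.8% of spots exceeded background clearly, and precision is limited by how many arrays there were. PCL1 stood apart from its group, with a mean correlation over the 20181 genes of 0.945 with the other PCL tumours, against 0.966 to 0.968 for each of PCL2, PCL3 and PCL4. Its mean correlation with BL was higher, at 0.952, while PCL2, PCL3 and PCL4 were each most like PCL. Summed over 8 plasma cell markers, the level was 34.4 times the 75th percentile for PCL1 and 63.5 to 66.4 for the other 3 PCL tumours, against 29.8 to 43.0 in MCL and 31.8 to 40.0 in BL, so on this sum PCL1 lay among the other types. By the median of these markers, each relative to its own mean, PCL1 was at -0.21 and PCL2 to PCL4 at 0.37 to 0.74. MCL1, at 0.43, lay above PCL2. Between PCL and MCL Xbp1 and Irf4 were at -0.13 and -0.02, the other markers were above 0, and none was called. PCL1 is kept in PCL as labelled, and results that rest on it are given with and without it. These are bulk samples, so fewer cells of a type and less RNA per cell cannot be told apart. The 11 mature B cell markers used were well above background in all 11 tumours. Their summed level was 177 to 235 times the 75th percentile in PCL, 274 to 337 in MCL and 268 to 331 in BL. The markers did not all move with the sum. Between PCL and MCL Cd79a, Cd79b, Pax5, Ebf1 and Cr2 had differences of 0.04, 0.55, 0.52, 0.65 and 0.37. The others were below 0, from -0.57 (Cd22) to -3.06 (Fcmr).

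Probe positions, as the scanner files give them on mouse build mm9, show what each measurement can see. The probe of Bcl2 lies at chr1:108608970-108609029 on the minus strand. The probe of Bcl2l11 is annotated from chr2:127972893 to chr2:127983988 on the plus strand, a span of 11096 bases for a 60-base probe, so it reads across a splice junction and sees spliced transcripts that hold both exons. The second probe of Bcl2l1 lies at chr2:152655185-152655244 on the minus strand, and the first at chr2:152606404-152606463. These 3 probe sequences are shown because they read the survival genes Bcl2 and Bcl2l1 and, across a junction, the death gene Bcl2l11.
Bcl2 probe: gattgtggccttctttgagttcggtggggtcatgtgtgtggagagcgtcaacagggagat
Bcl2l11 probe: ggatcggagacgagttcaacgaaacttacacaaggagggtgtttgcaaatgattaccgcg
Bcl2l1 second probe: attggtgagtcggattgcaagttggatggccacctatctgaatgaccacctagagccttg
The other probes lie at chr3:95466855-95466914 and chr3:95465543-95465602 (Mcl1, plus strand), chr9:88618165-88618224 (Bcl2a1d, minus), chr7:52717122-52717181 (Bax, minus), chr17:27156807-27156866 (Bak1, minus), chr6:120843464-120843523 (Bid, minus) and chr7:16903403-16903462 (Bbc3, plus).

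Across the 3 types, the family separated by 2 genes. Bid was lower in PCL than in both other types, and Bcl2a1d was lower in PCL than in MCL. Between PCL and MCL, 2 of the 10 genes were called, both lower in PCL, beside 6.85% of all genes (4.75% called lower in PCL). Between PCL and BL, 1 of 10 was called, also lower in PCL, beside 0.659% of all genes (0.203% lower). Between MCL and BL, limma called 0 of 10 beside 6.62% of all genes, and 1 of 10, Bid, had an unadjusted p under 0.05, beside 18.4%. The moderated F test for any difference among types called Bid alone, 1 of 10 beside 8.37%. Leaving out 1 tumour changed the count between PCL and MCL to 3 without PCL1 (Bcl2 in addition), to 0 without PCL2, PCL3, PCL4, MCL1 or MCL3, and to 1 without MCL2, BL2 or BL3. Between PCL and BL it was 2 without PCL1 and 0 without PCL2, between MCL and BL 1 without PCL1, and by the F test 2 without PCL1 or MCL2. The median difference of the 10 genes was -0.26 between PCL and MCL, -0.33 between PCL and BL and -0.17 between MCL and BL, and the medians over all genes were -0.03, 0.09 and 0.06 in the same 3 comparisons.

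**Figure D1:**
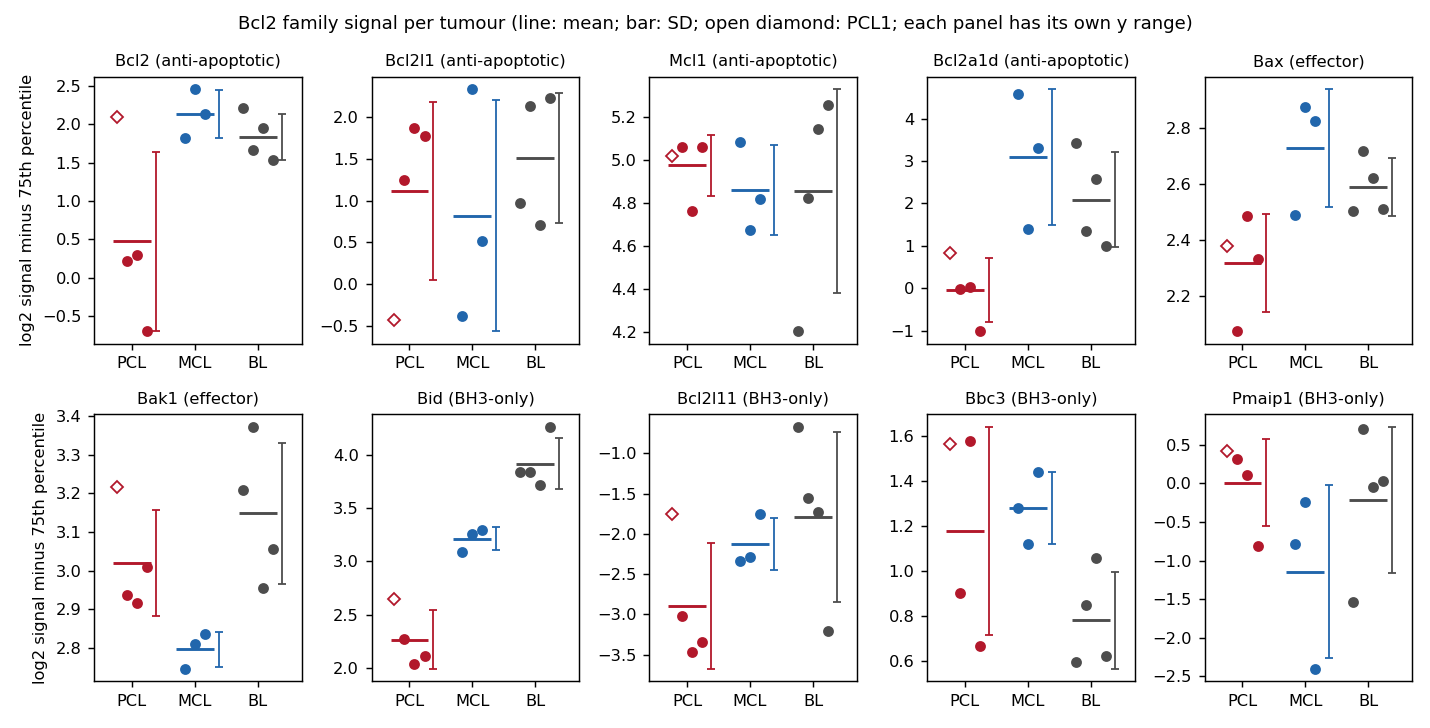
Level of each of the 10 genes (y axis, log2 signal minus the array's 75th percentile) in every tumour, by lymphoma type (x axis); points are tumours, the open diamond is PCL1, lines are means and bars SD, and each panel has its own y range. Bid falls into 3 separate bands, with PCL lowest (2.03 to 2.65) and BL highest (3.72 to 4.26), and PCL1 lies away from the other PCL tumours for Bcl2 and Bcl2l1.

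Bid is the BH3-only protein that caspase 8 cleaves, which links death receptors to the mitochondrion. Its level was 2.65, 2.27, 2.03 and 2.11 in PCL1 to PCL4, 3.09, 3.26 and 3.29 in MCL1 to MCL3, and 3.84, 3.84, 3.72 and 4.26 in BL1 to BL4. The 3 types did not overlap: every PCL tumour lay below every MCL tumour, and every MCL tumour below every BL tumour. Bid was 1.93-fold lower in PCL than in MCL (log2 difference -0.95 ± 0.20 SE, limma adjusted p = 0.0259) and 3.14-fold lower in PCL than in BL (-1.65 ± 0.19, adjusted p = 0.0105). The step between MCL and BL, -0.70 ± 0.20, was not called (adjusted p = 0.0706), and it was called without PCL1 (adjusted p = 0.0450), since all arrays share one estimate of the spread. Without PCL2 the difference between PCL and BL was -1.65 and not called (adjusted p = 0.0515). The difference between PCL and MCL kept its direction in 23 of 23 alternatives of processing and lost its call in 10, among them leaving out any of PCL2, PCL3, PCL4, MCL1, MCL2 or MCL3, with adjusted p from 0.00329 to 0.0812 over all of them.

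Bid lies on chromosome 6, and other genes of that chromosome moved in the same direction. Of its 10 nearest measured genes in the gene order of the annotation (assembly GRCm38.p6), 10 had a difference below 0 between PCL and BL, with a median of -0.89, and 8 between PCL and MCL, with a median of -0.52. The nearest on one side was Bcl2l13, itself a Bcl2 relative of the mitochondrial membrane, at -1.08 between PCL and BL (adjusted p = 0.0855). The other 692 genes of chromosome 6 had a median of -0.45 between PCL and MCL and -0.49 between PCL and BL, and 18.6% and 3.61% of them had a lower difference than Bid in these 2 comparisons. Relative to its own mean across all 11 tumours, Bid stood at -0.47 in PCL1, where the other chromosome 6 genes had a median of 0.05. In PCL2, PCL3 and PCL4 Bid stood at -0.86, -1.09 and -1.01, and the other chromosome 6 genes at -0.35, -0.44 and -0.46. In PCL1 Bid was below every MCL and BL tumour. Among the PCL tumours, PCL1 was the highest both for Bid and for the median of the other chromosome 6 genes. The part of the chromosome in the difference of Bid was not tested.

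**Figure D2:**
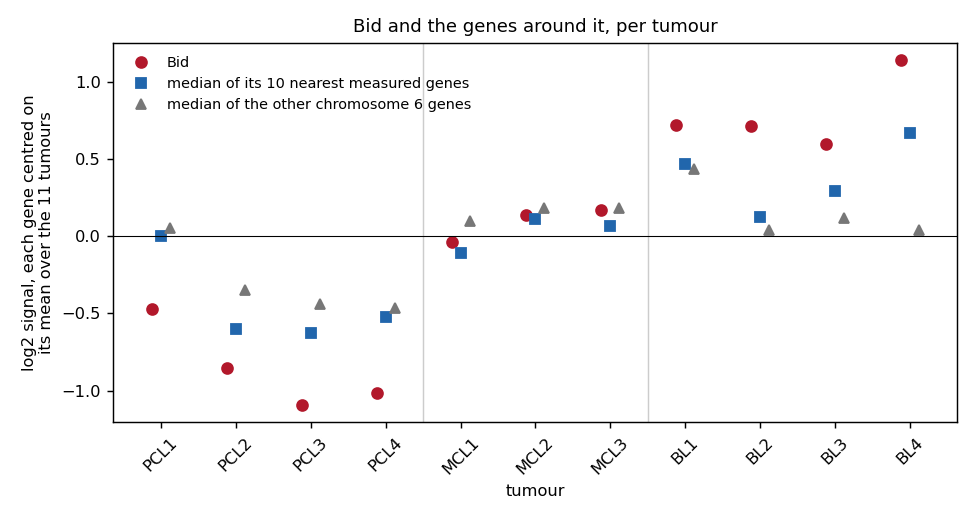
Bid, the median of its 10 nearest measured genes and the median of the other 692 genes of chromosome 6 (y axis, log2 signal relative to the mean of each gene across all tumours) in every tumour (x axis, grouped by type). In PCL1 Bid lies at -0.47 while both medians lie near 0, and in PCL2 to PCL4 all 3 are below 0, with Bid lowest.

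By a fixed rule, the 5 named genes most like Bid over the 11 tumours, of 14068 compared, were Setd5 (Pearson's r = 0.973), Exoc4 (0.963), Mzf1 (0.961), Mlf2 (0.956) and Zfp248 (0.952). All but Mzf1, which is on chromosome 7, lie on chromosome 6 like Bid. The bases before the start of Bid are shown because its levels did not overlap between the 3 types, although MCL minus BL was not called. The sequence is the 250 bases upstream, at chr6:120916825-120917074 on the minus strand of GRCm38.p6, from RefSeq.
Bid upstream: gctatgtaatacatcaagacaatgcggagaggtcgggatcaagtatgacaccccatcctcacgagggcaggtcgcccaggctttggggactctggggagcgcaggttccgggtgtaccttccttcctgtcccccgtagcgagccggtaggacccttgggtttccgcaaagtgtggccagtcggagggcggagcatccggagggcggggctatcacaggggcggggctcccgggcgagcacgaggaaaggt
The E-box of Myc (CACGTG, the same letters on both strands) was not among the letters of the Bid window of 250 bases before to 50 after the start.

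Among the anti-apoptotic genes, Bcl2a1d, which encodes the short-lived protein A1 and is a target of NF-kB in B cells, had the widest range over the tumours. Its level was 0.83, -0.01, 0.04 and -1.01 in PCL1 to PCL4, 4.57, 1.41 and 3.31 in MCL1 to MCL3, and 3.43, 1.36, 2.59 and 0.99 in BL1 to BL4. All PCL tumours lay below all others, the nearest being PCL1 at 0.83 and BL4 at 0.99, and MCL and BL overlapped widely. Bcl2a1d was 8.79-fold lower in PCL than in MCL (-3.14 ± 0.80, adjusted p = 0.0453). Between PCL and BL the difference was -2.13 ± 0.74 and not called (adjusted p = 0.175), and between MCL and BL it was 1.01 ± 0.80 (adjusted p = 0.583), or 0.27 without MCL1 and 1.85 without MCL2. The call between PCL and MCL stood near the threshold: it was kept in 13 of 23 alternatives, with adjusted p from 0.00569 to 0.122, and without MCL1 the difference was -2.40 (adjusted p = 0.121). It was also lost without PCL2, PCL3, PCL4 or MCL3, with adjusted p of 0.107, 0.0970, 0.122 and 0.113, and without BL2 or BL3 (0.0592 and 0.0617).

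The mouse has several near-identical copies of this gene, and the array names 2 of them. The probe named Bcl2a1c stood at -2.80, -3.47, -3.46 and -4.41 in PCL1 to PCL4, 0.85, -2.31 and -0.51 in MCL1 to MCL3, and 0.27, -2.16, -1.0 and -2.68 in BL1 to BL4. It put the tumours in nearly the same order as the Bcl2a1d probe, with Pearson's r of 0.994 and Spearman's rho of 0.991 over the 11 tumours, and its difference between PCL and MCL was -2.88 ± 0.83 (adjusted p = 0.0668). The copies Bcl2a1a and Bcl2a1b were not analysed here. Since the copies can share transcripts that bind one probe, the signal cannot be given to 1 copy with certainty. The upstream sequences of the 2 measured copies show how alike they are: in the best-matching stretch of their 250 upstream bases, 140 aligned columns, 90.7% of the letters were identical. The stretch ends at the annotated start in Bcl2a1d and lies farther upstream of it in Bcl2a1c, and capitals mark the letters that differ or are missing from the other copy. The sequences are at chr9:88731851-88731984 on the minus strand (Bcl2a1d) and chr9:114329885-114330024 on the plus strand (Bcl2a1c) of GRCm38.p6, from RefSeq.
Bcl2a1d upstream: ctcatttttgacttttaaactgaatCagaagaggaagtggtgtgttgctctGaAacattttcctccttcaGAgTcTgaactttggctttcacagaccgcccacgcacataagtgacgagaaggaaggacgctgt
Bcl2a1c upstream: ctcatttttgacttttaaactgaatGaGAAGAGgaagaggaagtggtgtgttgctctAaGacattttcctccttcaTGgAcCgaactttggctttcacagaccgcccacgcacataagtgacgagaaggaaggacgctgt
The best-matching upstream stretches of Bcl2a1a and Bcl2a1b were 95.2% and 96.1% identical to Bcl2a1d over 250 and 206 aligned columns.

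**Figure D3:**
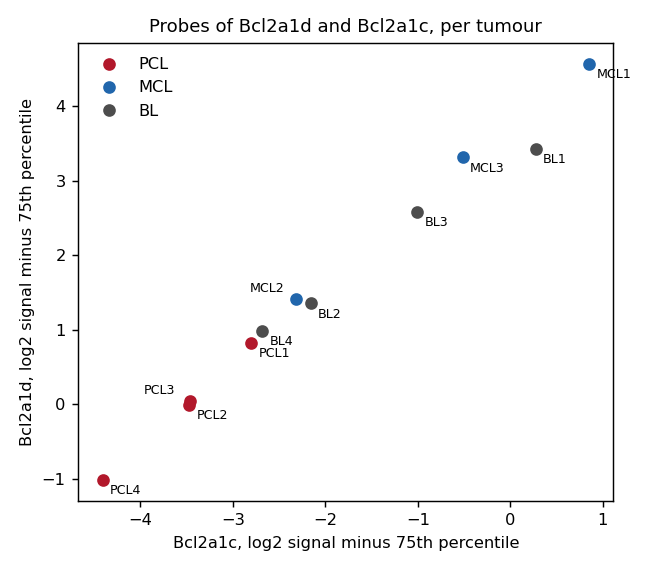
Level of the Bcl2a1d probe (y axis) against that of the Bcl2a1c probe (x axis), both as log2 signal minus the array's 75th percentile, with 1 labelled point per tumour coloured by type. The 4 PCL tumours lie at the low end of both probes and the highest point is MCL1, at 4.57 and 0.85.

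After Bcl2a1c, the genes most like Bcl2a1d over the 11 tumours were Atf5 (r = 0.939), Setmar (0.934), Serpinc1 (0.932) and Kremen2 (0.931). Cells of other kinds varied between the tumours as well, and some of them, such as neutrophils and macrophages, are known to express Bcl2a1 genes. The 14 macrophage and monocyte markers had a summed level of 13.9 times the 75th percentile in PCL1 and 41.5, 27.1 and 30.4 in PCL2 to PCL4, against 13.9 to 21.5 in MCL and 10.4 to 22.7 in BL. The markers did not all move with the sum. Between PCL and MCL Itgam was at -0.23, and the others were above 0, from 0.99 (Cd68) to 4.27 (Vcam1). The granulocyte list, 9 of 10 genes measured, had 0.94 to 22.6 in PCL, 1.61 to 3.78 in MCL and 0.79 to 10.5 in BL. The T cell list, 8 of 10 genes measured, had 5.54 to 7.95 in PCL, 8.74 to 18.2 in MCL and 5.44 to 13.7 in BL, and MCL1, the tumour with the highest Bcl2a1d, was also highest on it. The median of the T cell genes, each relative to its own mean over the tumours, was 1.07, -0.61 and -0.76 in MCL1 to MCL3. It was -0.15 to 0.04 in PCL and -1.45 to 0.81 in BL, so by the median MCL2 and MCL3 lay below every PCL tumour. The part of other cells in the level of Bcl2a1d was not tested.

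Bcl2, the founding survival gene of the family, was spread more widely in PCL than in the other types. Its level was 2.09, 0.22, 0.30 and -0.70 in PCL1 to PCL4, 1.82, 2.46 and 2.13 in MCL1 to MCL3, and 2.21, 1.66, 1.95 and 1.54 in BL1 to BL4. PCL1 lay within the range of MCL and BL, and PCL2, PCL3 and PCL4 lay below all 7 of those tumours. With all tumours Bcl2 was not called, at -1.66 ± 0.53 between PCL and MCL (adjusted p = 0.0899) and -1.36 ± 0.49 between PCL and BL (adjusted p = 0.192). Without PCL1 it was called in both, at -2.20 ± 0.31 (adjusted p = 0.00477) and -1.90 ± 0.29 (adjusted p = 0.0109). Between MCL and BL the difference was 0.30 ± 0.53, with a 95% interval from -0.89 to 1.48 (adjusted p = 0.831).

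Bcl2l1, whose main product Bcl-xL protects mitochondria as Bcl2 does, varied within every type. Its level was -0.43, 1.24, 1.86 and 1.77 in PCL1 to PCL4, -0.39, 2.33 and 0.51 in MCL1 to MCL3, and 0.97, 2.13, 0.71 and 2.22 in BL1 to BL4. The lowest tumours were PCL1 and MCL1, of different types, and all 3 ranges overlapped. The differences were 0.29 between PCL and MCL, -0.40 between PCL and BL and -0.69 between MCL and BL, with standard errors of 0.68 to 0.74 and adjusted p of 0.844, 0.814 and 0.696. The second probe, above background in 9 of 11 tumours, gave the same order closely (r = 0.990, rho = 0.982 over the 11 tumours) and differences of 0.27, -0.49 and -0.76. So the pattern of Bcl2l1 between tumours was seen by both probes, while the types were not told apart by either.

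Mcl1, a survival protein with fast turnover on which plasma cells are known to depend, differed little between types at its first probe. Its level was 5.02, 5.06, 4.76 and 5.06 in PCL1 to PCL4, 5.09, 4.67 and 4.82 in MCL1 to MCL3, and 4.20, 4.82, 5.14 and 5.26 in BL1 to BL4. The 3 ranges overlapped, and BL held both the lowest and the highest tumour. The difference between PCL and MCL was 0.12, with a 95% interval from -0.44 to 0.68 (adjusted p = 0.817), that between PCL and BL was 0.12 (-0.40 to 0.64, adjusted p = 0.842), and that between MCL and BL was 0.00 (-0.56 to 0.56, adjusted p = 0.997). The second probe agreed only loosely with the first (r = 0.451, rho = 0.382 over the 11 tumours). It stood at 3.64, 2.79, 2.40 and 2.48 in PCL1 to PCL4, 3.47, 3.75 and 3.16 in MCL1 to MCL3, and 2.39, 3.38, 3.48 and 3.68 in BL1 to BL4, and its difference between PCL and MCL was -0.63 ± 0.37 (adjusted p = 0.339 over all probes). The sign of the difference for Mcl1 therefore turned with the probe, and neither was called.

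The effectors Bax and Bak1, which form the pores in the outer membrane, were the steadiest of the 10 genes. Their standard deviation within types was 0.16 for Bax and 0.14 for Bak1, against a median of 0.42 over all genes, and the other members lay between 0.23 (Bid) and 1.15 (Bcl2a1d). That median covers dim and bright genes together, and no comparison was made with genes of like signal alone. Bax stood at 2.38, 2.07, 2.49 and 2.33 in PCL1 to PCL4, 2.49, 2.88 and 2.83 in MCL1 to MCL3, and 2.51, 2.72, 2.62 and 2.51 in BL1 to BL4. PCL lay below both other types without overlap, but the gaps were small: the difference was -0.41 ± 0.17 between PCL and MCL (adjusted p = 0.167) and -0.27 ± 0.16 between PCL and BL (adjusted p = 0.406). Bax lies on chromosome 7, where 10 of its 10 nearest measured genes also had a difference below 0 between PCL and MCL, with a median of -0.73, and the other genes of the chromosome had a median of -0.39. Bbc3, on the same chromosome, was at -0.10 there, with 8 of its 10 nearest genes below 0. Between PCL and BL Bbc3 was at 0.40, while 9 of these 10 genes were below 0, with a median of -0.59. The part of the chromosome in these differences was not tested. Without overlap between groups were 4 of the 10 genes between PCL and MCL (Bcl2a1d, Bax, Bak1 and Bid), beside 22.8% of all genes, 3 between PCL and BL (Bcl2a1d, Bax and Bid), beside 11%, and 3 between MCL and BL (Bak1, Bid and Bbc3), beside 17.7%.

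Bak1 ran against Bax in the comparison of PCL and MCL. It stood at 3.22, 2.94, 2.92 and 3.01 in PCL1 to PCL4, 2.75, 2.81 and 2.83 in MCL1 to MCL3, and 3.21, 3.37, 2.96 and 3.06 in BL1 to BL4. All MCL tumours lay below all others. The differences were small and not called, at 0.22 ± 0.16 between PCL and MCL (adjusted p = 0.418), -0.13 ± 0.15 between PCL and BL (adjusted p = 0.699) and -0.35 ± 0.16 between MCL and BL (adjusted p = 0.273). The 95% interval of the difference between PCL and MCL ran from -0.13 to 0.58 for Bak1 and from -0.78 to -0.04 for Bax.

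**Figure D4:**
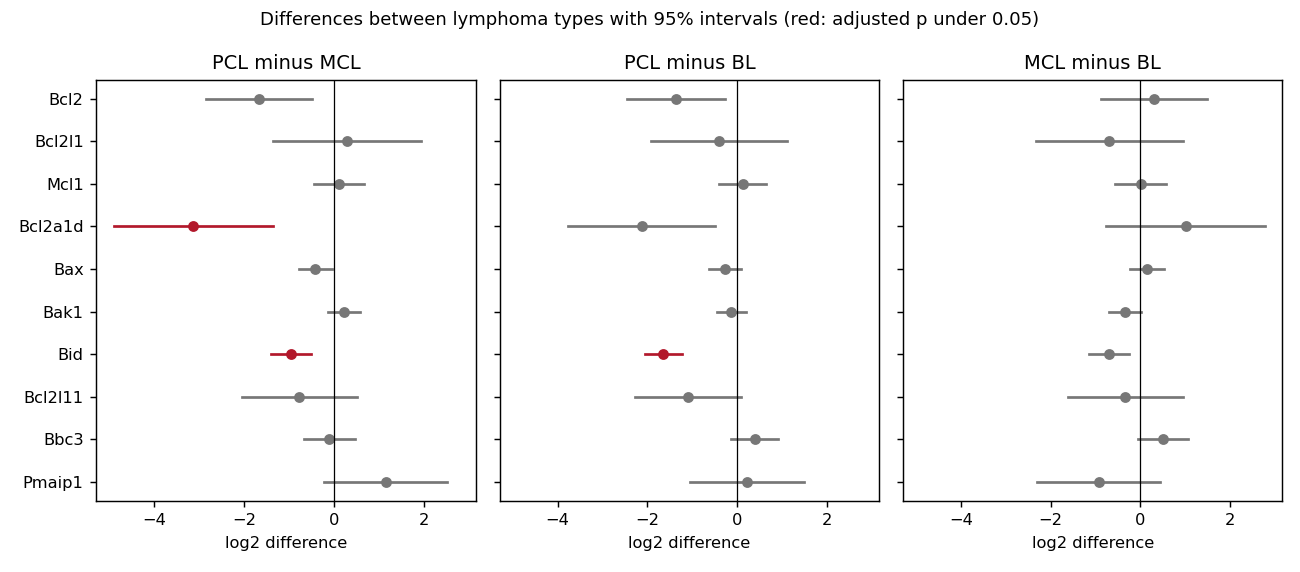
Log2 difference of each of the 10 genes (x axis) in the 3 comparisons, PCL minus MCL, PCL minus BL and MCL minus BL, with 95% intervals from the fit; red marks an adjusted p under 0.05. Bcl2a1d and Bid are red between PCL and MCL and Bid between PCL and BL. The intervals of Bak1 and Mcl1 (first probe) include 0 in all 3 comparisons, and that of Bax between PCL and MCL runs from -0.78 to -0.04 without a call.

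The other BH3-only genes were not called. Bcl2l11 encodes Bim, which removes B cells that bind self antigen or lose survival signals. It stood at -1.76, -3.02, -3.46 and -3.34 in PCL1 to PCL4, -2.34, -2.29 and -1.75 in MCL1 to MCL3, and -0.67, -1.55, -1.73 and -3.20 in BL1 to BL4. As for Bcl2, PCL2, PCL3 and PCL4 lay below the MCL tumours and PCL1 did not, and BL4 lay with the low PCL tumours. The differences were -0.77 ± 0.57 between PCL and MCL (adjusted p = 0.444), -1.11 ± 0.53 between PCL and BL (adjusted p = 0.315) and -0.34 ± 0.57 between MCL and BL (adjusted p = 0.821).

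Bbc3, which encodes the p53 target Puma, stood at 1.56, 0.91, 1.58 and 0.67 in PCL1 to PCL4, 1.28, 1.12 and 1.44 in MCL1 to MCL3, and 0.60, 0.85, 1.06 and 0.62 in BL1 to BL4. MCL lay above BL without overlap, at 0.50 ± 0.25 (adjusted p = 0.346), and PCL spanned both. Its differences were -0.10 ± 0.25 between PCL and MCL (adjusted p = 0.841) and 0.40 ± 0.24 between PCL and BL (adjusted p = 0.425). Pmaip1, which encodes the p53 target Noxa, the partner of Mcl1 and A1, has its probe at chr18:66625088-66625147 (mm9, plus strand). It stood at 0.42, 0.31, 0.11 and -0.81 in PCL1 to PCL4, -0.79, -0.24 and -2.40 in MCL1 to MCL3, and -1.54, 0.71, -0.05 and 0.04 in BL1 to BL4. All 3 ranges overlapped, and MCL3 was lowest. Its difference of 1.15 ± 0.61 between PCL and MCL was the largest positive one of the 10 genes and was not called (adjusted p = 0.281), and it was 0.53 without MCL3. It was 0.22 ± 0.57 between PCL and BL (adjusted p = 0.889) and -0.93 ± 0.61 between MCL and BL (adjusted p = 0.490). Trp53 itself, heterozygous in these mice, had a level of -2.38 in PCL1 and -0.19, -0.15 and 0.17 in PCL2 to PCL4, -2.92 to -1.23 in MCL and -2.11 to -0.60 in BL. That probe was not checked for lying in the disrupted part of the gene.

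Bcl2, Bcl2a1d, Bid and Bcl2l11 were lowest on average in PCL, and Bax too, while Pmaip1 was highest in PCL, as was Mcl1 by its first probe, whose second probe was lowest in PCL. These are orders of means, and neighbours in them were called different only where a call is given above. PCL1 lay outside the range of PCL2 to PCL4 for 7 of the 10 genes, above it for 6 and below it for Bcl2l1. The same held for 71.1% of all genes, so the share is near the background. PCL3 also lay outside the range of the other PCL tumours for 7 of the 10 genes, beside 44.5% of all genes. PCL4 did so for 5, beside 44.7%, and PCL2 for 1, beside 39.7%.

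RefSeq promoters, 250 bases before to 50 after a start, were at hand for 9 of the 10 genes, 14 windows in all. The E-box CACGTG was in 2 of them, with 2 matches in Bax and 1 in a window of Bbc3, and in 7.15% of all 32851 windows. A kB motif of NF-kB was searched on both strands and found in 2 windows, 1 of Bcl2l1 and 1 of Bbc3, against 4.51% of all windows, and in none of Bcl2a1d. These are matches of letters and no evidence of binding.

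Around the 10 genes, 65 of 70 listed apoptosis genes were measured, and most were not called. Between PCL and MCL 5 were called, 2 higher (2.11% of all genes) and 3 lower in PCL (4.75%), beside 6.85% of all genes in either direction. Between PCL and BL limma called 0, beside 0.659%, and 16 had an unadjusted p under 0.05, beside 17.6%. Between MCL and BL 1 was called, beside 6.62%. The median difference of the 65 genes was 0.07, -0.05 and -0.12 in these comparisons.

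Both genes higher in PCL than in MCL belong to the list of apoptosome and caspases, of which 2 of 12 were called. Casp8 encodes the initiator caspase of death receptors, the enzyme that cleaves Bid. It stood at 1.27, 1.48, 1.63 and 1.33 in PCL1 to PCL4, 0.45, 0.41 and 0.25 in MCL1 to MCL3, and 0.53, 1.03, 0.50 and 1.05 in BL1 to BL4, so PCL lay above both other types without overlap. It was higher in PCL than in MCL by 1.06 ± 0.19 (adjusted p = 0.0163), opposite in direction to Bid, and the call was lost in 4 of 23 alternatives: without PCL2 (adjusted p = 0.0567) or MCL3 (adjusted p = 0.0521), with normexp (adjusted p = 0.0553) and with array position as a block (adjusted p = 0.0686). Between PCL and BL Casp8 was at 0.65 ± 0.18 and was not called (adjusted p = 0.1125). Casp8 lies on chromosome 1, like Bcl2. The genes of that chromosome other than Bcl2 had a median of 0.30 between PCL and MCL and 0.21 between PCL and BL. The part of the chromosome in the difference of Casp8 was not tested. Aifm1, which encodes a mitochondrial flavoprotein released in cell death, stood at 2.26, 2.59, 1.95 and 2.24 in PCL1 to PCL4 and 1.51, 1.34 and 1.63 in MCL1 to MCL3, higher in PCL by 0.77 ± 0.19 (adjusted p = 0.0418), and it lost the call in 13 of 23 alternatives. The next in this list, Htra2 (-0.83 ± 0.26 between PCL and BL, adjusted p = 0.140) and Cycs, which encodes cytochrome c (-0.63 ± 0.20 between PCL and BL, adjusted p = 0.139), lie on chromosome 6 and were not called.

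The 3 genes lower in PCL than in MCL are transcriptional regulators, 3 of 18 on that list. Rel, the NF-kB subunit c-Rel of B cells and an activator of Bcl2a1 genes, stood at -4.20, -5.92, -5.43 and -6.15 in PCL1 to PCL4, -3.06, -1.57 and -3.31 in MCL1 to MCL3, and -4.45, -4.33, -4.05 and -4.01 in BL1 to BL4. Of the PCL tumours only PCL1 had this probe well above background. The difference was -2.78 ± 0.51 (adjusted p = 0.0161), and -1.10 (adjusted p = 0.339) with normexp background correction. The call was lost in 5 of 22 alternatives, the others being without PCL2 (adjusted p = 0.0556) or PCL4 (adjusted p = 0.0527), with array position as a block (adjusted p = 0.0721) and with only these types fitted (adjusted p = 0.0556), and the authors' deposited table gave -1.70. Bcl3, a nuclear partner of NF-kB, stood at 1.63, 1.09, 1.76 and 1.70 in PCL1 to PCL4, 3.53, 2.48 and 2.89 in MCL1 to MCL3, and 2.90, 2.58, 2.57 and 2.33 in BL1 to BL4. It was lower in PCL than in MCL (-1.42 ± 0.27, adjusted p = 0.0188), it lost the call in 3 of 23 alternatives, without PCL2 (adjusted p = 0.0579) or PCL4 (adjusted p = 0.0527) and with only these types fitted (adjusted p = 0.0525), and it lies on chromosome 7.

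Trp73, a p53 relative that can activate BH3-only genes, was the gene called in 2 comparisons. It stood at -2.71, -3.08, -2.74 and -3.14 in PCL1 to PCL4, -2.11, -1.81 and -2.24 in MCL1 to MCL3, and -2.79, -2.90, -2.81 and -2.98 in BL1 to BL4. MCL lay above both other types without overlap, with -0.86 ± 0.18 between PCL and MCL (adjusted p = 0.0236) and 0.81 ± 0.18 between MCL and BL (adjusted p = 0.0239). With another background correction these were -0.39 (adjusted p = 0.585) and 0.39 (adjusted p = 0.908), and the calls held in 14 and 12 of 23 alternatives. Mef2b, a factor of germinal centre B cells, was at -3.13 ± 0.87 between PCL and MCL (adjusted p = 0.0604), and Relb, another NF-kB subunit, at -0.70 ± 0.20 between PCL and BL (adjusted p = 0.114).

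**Figure D5:**
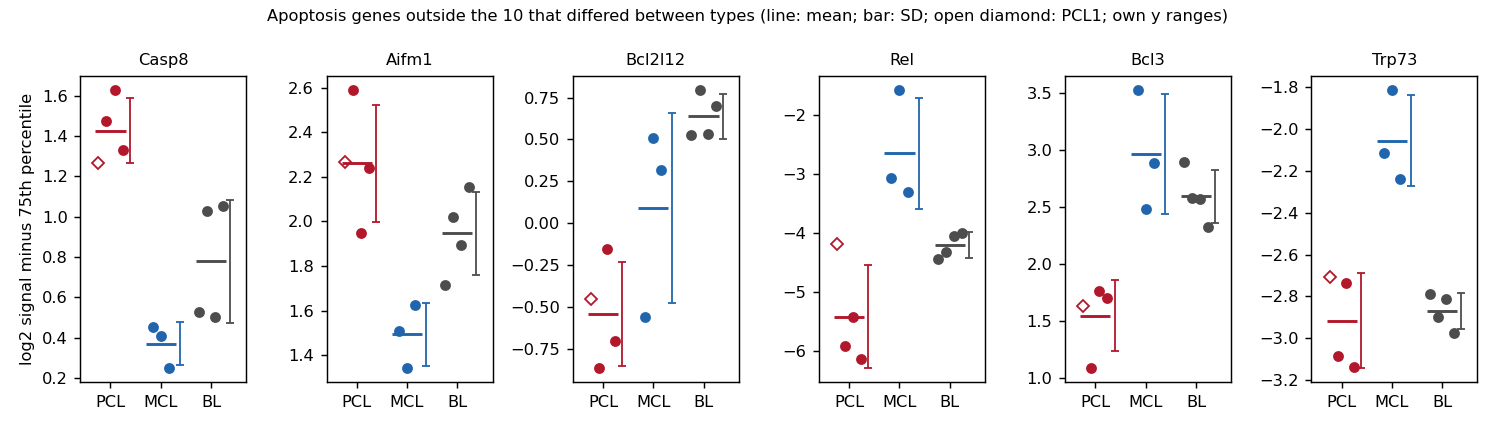
Level (y axis, log2 signal minus the array's 75th percentile) of the 6 listed apoptosis genes outside the 10 that were called in a comparison or by the F test, in every tumour by type (x axis); lines are means, bars SD, the open diamond is PCL1 and y ranges differ. Casp8 lies highest in PCL (1.27 to 1.63), Rel and Bcl3 lowest in PCL on average, and Trp73 highest in MCL.

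The remaining lists gave no call between 2 types. Of the 10 measured BH3-only and effector relatives, Bcl2l12 was called by the F test only (adjusted p = 0.0405), at -1.18 ± 0.25 between PCL and BL (adjusted p = 0.0623). It lies on chromosome 7 and stood at -0.45, -0.87, -0.15 and -0.70 in PCL1 to PCL4, -0.56, 0.51 and 0.32 in MCL1 to MCL3, and 0.53, 0.80, 0.53 and 0.70 in BL1 to BL4. Bcl2l14, on chromosome 6, was at -2.43 ± 0.69 between PCL and BL (adjusted p = 0.114), at -1.41 with normexp and -1.05 as the mean of its probes. Among the anti-apoptotic relatives, Bcl2l2, which encodes Bcl-w, was at 2.61 ± 0.83 between MCL and BL (adjusted p = 0.102), and at 0.77 with normexp background correction and 1.22 in the authors' deposited table. It stood at -1.92, -3.49 and -3.85 in MCL1 to MCL3 and -7.44, -4.85, -4.11 and -6.41 in BL1 to BL4, where BL1 and BL4 were not well above background, so the size of the difference is not exact. Of the 6 inhibitors of apoptosis, Birc3 was at 0.65 ± 0.29 between PCL and MCL (adjusted p = 0.196) and Birc5, which encodes survivin, at -0.43 ± 0.30 between PCL and BL (adjusted p = 0.496).

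Of the 7 measured death receptors and adaptors, the adaptor Fadd was at -0.91 ± 0.24 between PCL and BL (adjusted p = 0.103) and the receptor Tnfrsf1a at 1.09 ± 0.52 between MCL and BL (adjusted p = 0.312), or 0.49 with normexp. Of the 10 mitochondrial partners and turnover genes, the Bcl2-binding co-chaperone Bag1 was at 0.53 ± 0.17 between PCL and MCL (adjusted p = 0.0928) and its relative Bag3 at 1.13 ± 0.71 (adjusted p = 0.365), or 0.59 without MCL3.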

How the data were processed

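RNA of 11 lymphomas was labelled with Cy3 and hybridised to one-colour Agilent arrays, per the labels. The authors' scanner files, made per the file headers with Feature Extraction 10.7.3.1, hold the deposited processed signal, an intensity on a linear scale, detrended within the array. Their series table, deposited as log2 values (how they were made is not given in the sources used), was an alternative. Spots marked as outliers were left out, spots of a probe were averaged, 46 probes without a spot on some array were dropped, and the array's 75th percentile was subtracted from log2 signals. Substitute values set by the software filled 21.5% to 29.2% of spots. Of the probes, 25296 were flagged by the scanner software as clearly above background on 3 or more arrays and entered the tests, and the probe with the highest mean stood for a gene (20181 genes).

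A mean per type was fitted with limma 3.58.1 (R 4.3.3) over all arrays, with 8 residual and 2.01 prior degrees of freedom, and p-values were adjusted by Benjamini-Hochberg over all genes. Every adjusted p in the text comes from limma. The fit was tested on simulated data with known shifts. The simulated noise was independent between arrays, so slide, array position and a tumour set apart like PCL1 were not covered. The labels do not say that the tumours came from different mice, so the p-values reflect the spread among these samples alone, and that spread may be technical. The design text numbers 4 mantle cell samples and also counts 3, and 3 were analysed here. No 2 arrays held identical values. The members and gene lists were chosen with earlier results of these data known. A marker gene of the B cell list is not reported here and was left out of that list. The text names every member, each listed gene called in a comparison or by the F test, the 2 uncalled genes of each list with the smallest F test p, and the 5 named genes with the highest correlation with each called member. Alternatives covered background correction, scaling, filter, probe choice, samples, array weights, array position, RNA integrity number (8 to 10 in the labels) and leaving out each tumour. Gene names, gene order and promoters came from RefSeq for GRCm38.p6, while probe coordinates are of mm9. Analyses used Python 3.11.15.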

Additional observations from a re-analysis of the deposited data

Results flagged for a closer look

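Dixon's test for a single distant sample was applied to the 30 genes that the text names by rule, in the 4 PCL and the 4 BL tumours, 60 groups in all; chance flags about 1 in 20 such groups. It marked 2. Mcl1 stood at 4.76 in PCL3, with the other PCL tumours at 5.02 to 5.06, a gap of 0.866 of the range. Htra2, which encodes a mitochondrial protease, stood at 3.32 in BL4, with the other BL tumours at 4.11 to 4.16, a gap of 0.938 of the range.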

How the results depend on the processing

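Of the 30 differences of the 10 genes, 22 kept their direction in all 23 alternatives. So did the 21 differences given for other named apoptosis genes in each alternative that tested them, which was 22 for Rel and for Bcl2l2. The 8 that turned were all uncalled, and the cause was not tested. Leaving out 1 tumour at a time, Bcl2l1 ranged from -0.31 to 1.05 between PCL and MCL and from -0.66 to 0.12 between PCL and BL, Mcl1 from -0.10 to 0.25 between PCL and BL and from -0.22 to 0.14 between MCL and BL, Bcl2l11 from -0.81 to 0.037 between MCL and BL, Bbc3 from -0.24 to 0.068 between PCL and MCL, and Pmaip1 from -0.22 to 0.53 between PCL and BL. With the mean of all probes Mcl1 was at -0.26 between PCL and MCL and -0.14 between PCL and BL. Between MCL and BL Mcl1 was at -0.048 in the authors' deposited table, -0.012 with median scaling and -0.10 with array weights, which put Pmaip1 at -0.12 between PCL and BL.

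Without 1 tumour, the 10 genes gave 0 to 3 calls between PCL and MCL, 0 to 2 between PCL and BL, 0 to 1 between MCL and BL and 1 to 2 by the F test, and all genes gave 330 to 2455, 5 to 1079, 683 to 1365 and 711 to 2813, against 1383, 133, 1336 and 1690 with all tumours. Between PCL and MCL the 10 genes gave 0 calls with normexp background correction, 0 without the filter and 0 with only these types fitted, and 4 with array weights. Array weights gave 3 between PCL and BL and 4 by the F test. For all genes, in the same order of comparisons, normexp gave 197, 13, 64 and 129, and array weights gave 4433, 2181 and, by the F test, 4751. Without the filter the counts were 686, 85 and, by the F test, 1042. With only the types compared they were 740 between PCL and MCL and 290 between MCL and BL, where the authors' table gave 680 and quantile normalization 771. Normexp moved the median of all genes to 0.16 between PCL and MCL and -0.10 between MCL and BL, against -0.03 and 0.06.

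Replicate numbers are array positions. Deviations from the type means correlated at -0.05 to 0.17 between tumours of the same position, over 0.1 in 3 of 10 pairs. Between tumours of different positions they correlated at -0.24 to 0.17. With position as a replicate block, the 10 genes gave 1 call between PCL and MCL and 2 by the F test, and all genes 390, 65, 361 and 342. Under the block Bid was at -0.98 between PCL and MCL (adjusted p = 0.0812), and Bbc3 at 0.0089. Substitute values for dim spots limit what can be read from levels near background, as for Rel and the second probe of Bcl2l1.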
